A study of Mus musculus with 8 samples.

Results

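The 10 genes *Clec4f*, *Cd5l*, *Adgre1*, *Mpeg1*, *Vsig4*, *Timd4*, *Marco*, *C1qa*, *C1qb* and *C1qc* mark Kupffer cells, the resident macrophages of the liver, and were followed here through 4 groups of mouse liver. They are 10 of the 19267 genes in the count table, were taken by symbol, and all 10 were among the 13993 genes with enough counts to be tested. They had been selected on measured values, namely a weaker rise under alcohol in *Elf4-/-* mice than in WT mice in these same libraries. Their alcohol responses, the comparison of those responses between genotypes, and the genotype gap on each diet, from which that comparison is made, are therefore given as a description with standard errors (SE) and no p-value or call.

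Liver RNA came from male C57BL/6 mice aged 9 weeks at sampling. *Elf4-/-* stands for *Elf4* fl/fl-Villin-Cre mice, in which Cre driven by the villin promoter removes the transcription factor ELF4 from intestinal epithelium and is not directed at the liver, and WT for the comparison mice, labelled wild type, which carried Cre as well. Mice of the EtOH groups were given alcohol at 5% (w/v) in a Lieber-DeCarli liquid diet for 21 days, and mice of the Control groups received isocaloric maltose dextrin instead. The 4 groups, with 2 libraries each, are called WT-Control and WT-EtOH, and *Elf4-/-*-Control and *Elf4-/-*-EtOH. No label says whether the 2 libraries of a group came from separate mice, so a p-value below measures the spread between these libraries only.

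Kupffer cells sit in the sinusoids, where blood from the gut arrives through the portal vein, and they take up bacteria, bacterial products and dying cells. Their identity is kept by signals from neighbouring sinusoidal endothelial cells and stellate cells, and they are known to respond to the bacterial products that alcohol lets through the gut wall. Several of the 10 genes encode surface receptors for uptake, and 3 encode the chains of C1q, which starts the classical complement pathway and which macrophages make for the circulation.

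Library totals ran from 6171051 to 9157362 counts, and the 10 genes together had 1327 to 7083 counts per library. The mitochondrial genome took 33.7% and 23.4% of WT-Control counts, 12.5% and 10.8% of WT-EtOH counts, and 18.3% to 22.1% of those of the 4 *Elf4-/-* libraries. Replicates lay furthest apart in *Elf4-/-*-EtOH. The log2 difference between its 2 libraries had an SD over genes of 0.68, against 0.35 to 0.50 in the other groups (genes averaging 50 counts or more). *Elf4* itself had 6 to 36 counts per library and checks no label here, because the deletion is directed at the intestine. Levels below are counts relative to the library total (CPM), scaled by TMM factors that remove differences in library composition, and values are printed in replicate order.

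All 10 genes are protein coding, and none overlaps another gene in GENCODE M21, the annotation used for coordinates (GRCm38, as in mm10). *Clec4f* lies at chr6:83644542-83656187, *Cd5l* at chr3:87357881-87371073, *Adgre1* at chr17:57358691-57483527, *Mpeg1* at chr19:12460779-12465283, *Vsig4* at chrX:96247203-96293438, *Timd4* at chr11:46810800-46844332 and *Marco* at chr1:120474538-120505024. The C1q genes form a cluster of 18675 bp on the minus strand of chromosome 4, with *C1qb* at chr4:136880129-136886187, *C1qc* at chr4:136889804-136893065 and *C1qa* at chr4:136895917-136898803.

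RefSeq promoter windows of GRCm38.p6 were at hand for 8 of the 10 genes. The 250 bases before the start are shown for the 4 genes with the largest rise under alcohol in WT livers, as the stretch next to the starts of genes that moved together. They are *Cd5l* (chr3:87357631-87357880, plus strand), *Vsig4* (chrX:96293439-96293688, minus strand), *Marco* (chr1:120505025-120505274, minus strand) and *C1qb* (chr4:136886201-136886450, minus strand), each read 5′ to 3′ along its gene. Capitals mark GAGGAA or its reverse complement TTCCTC, letters in the core of sites of the macrophage factor PU.1, and TGCTGA or its reverse complement TCAGCA, the core letters of sites of MAF family factors.
Cd5l: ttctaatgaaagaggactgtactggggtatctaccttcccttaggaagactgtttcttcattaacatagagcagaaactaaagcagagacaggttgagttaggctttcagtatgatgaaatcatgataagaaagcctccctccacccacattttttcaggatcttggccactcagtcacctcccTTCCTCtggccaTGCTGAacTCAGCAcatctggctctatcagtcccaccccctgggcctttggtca
Vsig4: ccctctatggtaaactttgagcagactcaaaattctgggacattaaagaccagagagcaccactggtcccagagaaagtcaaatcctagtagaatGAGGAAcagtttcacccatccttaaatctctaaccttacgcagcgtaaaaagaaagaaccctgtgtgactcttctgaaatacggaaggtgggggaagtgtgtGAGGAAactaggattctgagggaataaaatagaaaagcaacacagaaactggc
Marco: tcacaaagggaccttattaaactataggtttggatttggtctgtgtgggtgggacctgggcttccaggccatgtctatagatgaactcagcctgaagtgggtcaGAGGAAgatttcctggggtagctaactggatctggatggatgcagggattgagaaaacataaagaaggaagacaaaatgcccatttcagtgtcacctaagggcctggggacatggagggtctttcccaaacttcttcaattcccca
C1qb: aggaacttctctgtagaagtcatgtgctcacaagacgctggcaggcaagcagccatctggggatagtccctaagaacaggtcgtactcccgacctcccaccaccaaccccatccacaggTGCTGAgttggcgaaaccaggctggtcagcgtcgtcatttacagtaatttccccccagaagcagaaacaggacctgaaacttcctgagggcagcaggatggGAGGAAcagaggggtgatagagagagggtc

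The first motif, searched on both strands, was in 5 of the 8 windows and in 23.3% of all 32851 promoter windows of the same length. The second was in 4 of the 8 windows and in 16.1% of all. These matches describe letters in the window, and no binding was measured.

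*Clec4f*, a C-type lectin that binds galactose-bearing glycoproteins and is found in mice on Kupffer cells, stood in WT livers at 128 and 103 CPM on the Control diet and at 232 and 238 under EtOH, and in *Elf4-/-* livers at 89.4 and 93.2 on the Control diet and at 96.0 and 92.7 under EtOH. Both WT-EtOH libraries were above the 6 others, and the 4 *Elf4-/-* libraries lay within a narrow band, below all WT libraries. Its fitted level under alcohol was 2.03-fold higher in WT (log2 1.02 ± 0.20, SE), while the estimate in *Elf4-/-* was 1.03-fold (log2 0.05 ± 0.20). Of the 10 genes, *Clec4f* had the smallest response in *Elf4-/-*.

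*Cd5l* encodes a secreted scavenger protein that supports macrophage survival. WT livers held 49.6 and 34.6 CPM without alcohol and 178 and 177 with it, and *Elf4-/-* livers 35.3 and 28.04 without and 56.4 and 53.9 with it. The EtOH libraries were above the Control libraries in both genotypes without overlap, and the *Elf4-/-*-EtOH pair was far below the WT-EtOH pair. Its fold change was 4.22 in WT (log2 2.08 ± 0.22) and 1.74 in *Elf4-/-* (log2 0.80 ± 0.22).

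*Marco*, a scavenger receptor for bacteria and particles, changed most of the 10. On the Control diet it had 2.61 and 2.02 CPM in WT and 4.305 and 1.79 in *Elf4-/-*, and under EtOH 84.2 and 33.2 in WT and 28.5 and 16.2 in *Elf4-/-*. The groups fed alcohol did not overlap with the Control groups, and the replicates of WT-EtOH differed by more than those of any of the other 9 genes. Its rise was 25.1-fold in WT (log2 4.65 ± 0.58) and 7.0-fold in *Elf4-/-* (log2 2.81 ± 0.53). The counts in the Control groups were low, from 11 to 42, so a count of 11 has a 95% exact Poisson interval of 5.49 to 19.7, which covers counting error only. Without replicate 1 of WT-EtOH the rise in WT was 3.83 on the log2 scale, and without replicate 1 of *Elf4-/-*-Control the difference between genotypes in the alcohol response went from -1.84 to -1.03.

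*Vsig4*, a complement receptor that captures C3-coated bacteria from blood, measured 10.4 and 6.07 CPM without and 37.6 and 35.5 with alcohol in WT, and 4.82 and 8.65 without and 11.6 and 15.4 with alcohol in *Elf4-/-*. Neither genotype had an overlap between its EtOH and Control libraries. The increase was 4.42-fold in WT (log2 2.14 ± 0.33) and 2.04-fold in *Elf4-/-* (log2 1.03 ± 0.33). *Timd4*, a phosphatidylserine receptor for dying cells that marks long-lived resident Kupffer cells, went in WT from 6.34 and 3.50 CPM to 19.0 and 14.8 with alcohol, and in *Elf4-/-* the pairs were 5.64 and 6.41 without and 5.10 and 7.56 with it. Its WT-EtOH pair stood alone, and the 2 *Elf4-/-* groups overlapped. It was 3.42-fold higher under alcohol in WT (log2 1.77 ± 0.35), against 1.06-fold in *Elf4-/-* (log2 0.08 ± 0.35), where leaving out replicate 2 of *Elf4-/-*-EtOH turned the estimate to -0.25.

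*Adgre1* encodes F4/80, an adhesion receptor found on most mouse tissue macrophages, and had the fewest counts of the 10. In WT it measured 2.24 and 1.66 CPM without alcohol and 7.33 and 7.24 with it, and in *Elf4-/-* 2.46 and 0.746 without and 1.59 and 2.79 with it. The WT-EtOH pair was above all others, while the 2 *Elf4-/-* groups overlapped. These levels rest on 5 to 71 counts, and the lowest count, 5, has a 95% exact Poisson interval of 1.62 to 11.7. The fold change was 3.72 in WT (log2 1.90 ± 0.55) and 1.32 in *Elf4-/-* (log2 0.40 ± 0.57). In *Elf4-/-*, the log2 estimate ran from -0.15 without replicate 2 of *Elf4-/-*-Control to 1.54 without replicate 1, and without replicate 1 the difference between genotypes in the response was -0.35 in place of -1.496.

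*Mpeg1*, which encodes perforin-2, a pore-forming protein that macrophages use against engulfed bacteria, followed another course. WT livers gave 43.6 and 49.9 CPM on the Control diet and 67.8 and 55.8 under EtOH, against 27.1 and 26.3, then 33.5 and 31.2, in *Elf4-/-* livers. All 4 *Elf4-/-* libraries were below all 4 WT libraries, on either diet. The alcohol response was small in both genotypes, with 1.32-fold in WT (log2 0.40 ± 0.18) and 1.21-fold in *Elf4-/-* (log2 0.28 ± 0.19). The difference between these responses was -0.12 ± 0.26 and came to 0.01 without replicate 1 of WT-EtOH, so *Mpeg1* did not show the weaker response for which the genes were picked beyond its error.

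The C1q genes encode the A, B and C chains of 1 protein. *C1qa* was at 14.4 and 17.5 CPM without and 67.9 and 59.6 with alcohol in WT, and at 15.4 and 18.0 without and 32.5 and 24.7 with it in *Elf4-/-*. For *C1qb* the WT pairs were 16.8 and 12.1, then 65.4 and 54.4 CPM with alcohol, and the *Elf4-/-* pairs 13.02 and 11.6, then 29.2 and 21.9. *C1qc* gave 14.2 and 13.6, then 64.7 and 46.6 CPM in WT, and 14.3 and 13.3, then 28.2 and 22.6 in *Elf4-/-*. In each of the 3 genes the Control libraries of both genotypes overlapped, *Elf4-/-*-EtOH lay above them, and WT-EtOH lay above *Elf4-/-*-EtOH. Their rises in WT were close to each other, at 4.0-fold for *C1qa* and *C1qc* and 4.14-fold for *C1qb*, and in *Elf4-/-* they were 1.71-, 1.83- and 2.06-fold in that order. The other genes of the classical pathway, which hepatocytes largely make, moved in different directions. Of 7 tested, 1 rose and 2 fell under alcohol in WT (21.6% of all genes) by edgeR's quasi-likelihood test at an adjusted threshold of 0.05. The 4 with most counts had log2 differences in WT of 0.97 (*C3*), -0.86 (*C4b*), -1.30 (*C1s1*) and -0.09 (*Serping1*).

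**Figure D1:**
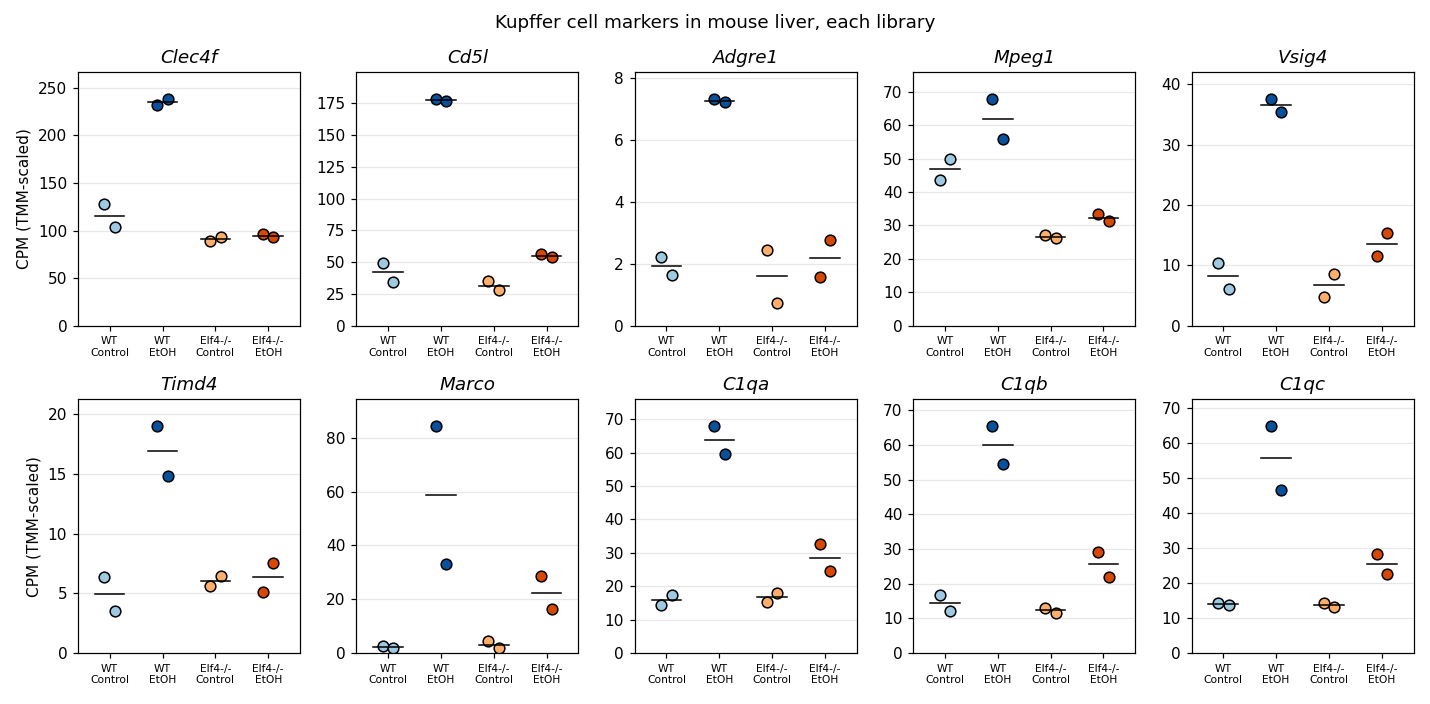
CPM of each of the 10 Kupffer cell markers (vertical axis from 0, own scale per gene) in the 4 groups, with 1 point per library and a line at the mean of the 2 libraries. Both WT-EtOH libraries are above the other 6 libraries for all 10 genes.

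Taking the 10 genes side by side, both WT-EtOH libraries were above the 6 others for 10 of 10, which held for 11.6% of all genes tested. *Elf4-/-*-EtOH was above *Elf4-/-*-Control without overlap for 7 of 10 (25.8% of all genes). Every ratio of an EtOH to a Control library in WT was above every such ratio in *Elf4-/-* for 7 of 10 (13.1% of all genes), the exceptions being *Adgre1*, *Mpeg1* and *Marco*. As the genes were picked for this pattern, these shares say nothing further about them. The summed level of the 10 genes in WT was 266 ± 31.2 CPM without and 773 ± 72.1 with alcohol, and in *Elf4-/-* it was 209.9 ± 2.52 without and 306 ± 23.9 with alcohol (SD, n = 2).

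The alcohol response of the 10 genes had a median log2 of 2.0 in WT, from 0.40 (*Mpeg1*) to 4.65 (*Marco*), and of 0.79 in *Elf4-/-*, from 0.05 (*Clec4f*) to 2.81 (*Marco*), against 0.01 for all genes in either genotype. Scaled by library totals alone, the median of all genes in WT moved to 0.44 and the genes called higher and lower in edgeR, over all genes tested, went from 1518 and 1507 to 3422 and 634. The median of the 10 genes was then 2.43.

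The response in *Elf4-/-* minus that in WT had a median of -1.18 over the 10 genes, below 0 in 10 of 10 (50.1% of all genes), from -1.84 ± 0.80 (*Marco*) to -0.12 ± 0.26 (*Mpeg1*). *Timd4* followed *Marco* at -1.69 ± 0.50, and the smallest errors were those of *Clec4f* at -0.97 ± 0.28, *C1qa* at -1.22 ± 0.31 and *Cd5l* at -1.28 ± 0.31. Since the genes were picked on this difference, its sign and size say nothing further about them. The WT-Control libraries, which carried the highest mitochondrial share, enter this difference. With mitochondrial genes left out the median was -1.16. TMM scaling already removes differences in library composition, so this value cannot speak to what lay behind the mitochondrial share, which was not tested.

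**Figure D2:**
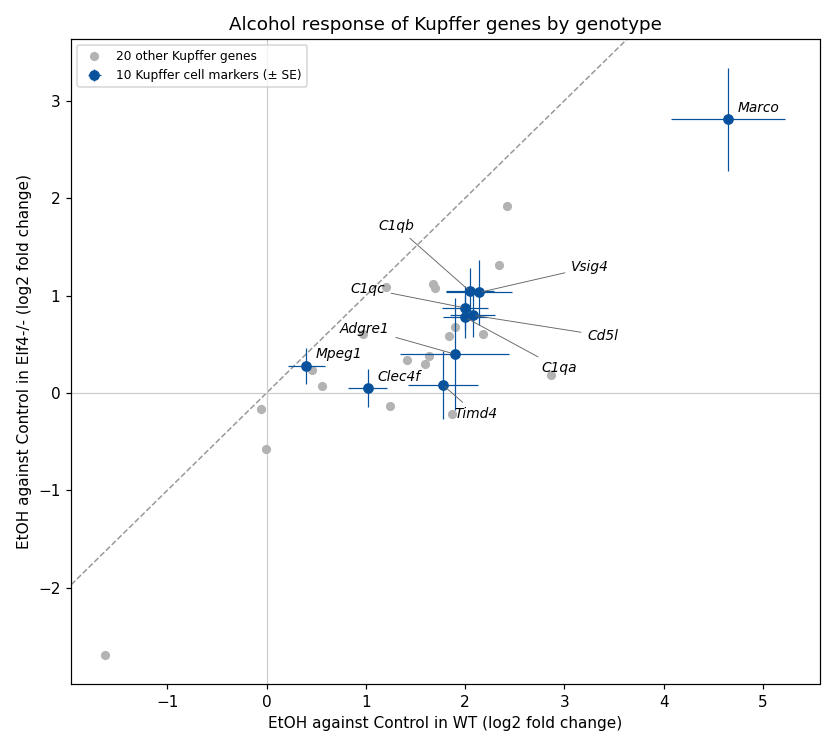
Alcohol response (log2 fold change, EtOH against Control) in WT on the horizontal axis and in *Elf4-/-* on the vertical axis, for the 10 Kupffer cell markers (blue, bars are SE) and 20 other Kupffer genes (grey), with a dashed line of equal response. All 10 markers and all 20 other genes lie below the line, with *Mpeg1* closest to it among the markers.

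Between genotypes on the same diet, all 10 genes had both *Elf4-/-*-EtOH libraries below both WT-EtOH libraries (21.4% of all genes), by a median log2 of -1.35. This gap is a part of the difference on which the genes were picked, so it is no separate result. On the Control diet the median was -0.22, and 7 of 10 estimates were below 0 (48.6% of all genes), while scaling by library totals alone gave 0.03 and 4 of 10. The estimates ran from -0.81 ± 0.19 (*Mpeg1*) to 0.45 ± 0.67 (*Marco*). Ordered by the mean of centred log2 CPM over the 10 genes, WT-EtOH came first at 1.35 ± 0.21, *Elf4-/-*-EtOH followed at 0.03 ± 0.04, then WT-Control at -0.61 ± 0.22 and last *Elf4-/-*-Control at -0.78 ± 0.14 (SD, n = 2). The last pair in this order did not differ beyond the spread of its libraries.

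The genotype difference averaged over both diets is another contrast than the one by which the genes were picked, and it was tested for each gene. It still holds the gap under EtOH, so it is not independent of the choice of genes. For *C1qc* it was -0.57, made of -1.13 under EtOH and -0.0062 on the Control diet, and for *Timd4* it was -0.56, made of -1.40 and 0.29. The median log2 of the 10 was -0.78 against 0.02 for all genes. *Cd5l* fell by 1.05 ± 0.16 (adjusted p = 0.0462) and *Mpeg1* fell by 0.87 ± 0.13 (adjusted p = 0.0486) in edgeR's quasi-likelihood test, adjusted over all genes tested. These were 2 of the 3 genes called lower among all genes tested, which is 0.0214%. The choice of genes enters the p-values of this contrast and the share through the gap under EtOH. The share therefore says nothing further about the markers, and the p-values are no independent support for them. For *Cd5l* the gap was -1.69 under EtOH and -0.41 on the Control diet, and for *Mpeg1* it was -0.93 and -0.81. *Clec4f* was at -0.83 ± 0.14 with an adjusted p of 0.0742 in the same edgeR test, and the other 7 genes had adjusted p-values from 0.194 (*C1qb*) to 0.839 (*Marco*).

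Both calls share the EtOH libraries with the choice of genes and rest on narrow margins. They were lost without any 1 of the WT or *Elf4-/-*-Control libraries (adjusted p from 0.0573 to 0.324 for *Cd5l* and from 0.168 to 0.355 for *Mpeg1* in edgeR), with library totals as scaling (0.0630 for each), and with the replicate number as a block (0.0674 and 0.0964). *Clec4f* passed in DESeq2 (adjusted p = 0.000355) and in edgeR without either *Elf4-/-*-EtOH library (0.0300 and 0.0256).

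**Figure D3:**
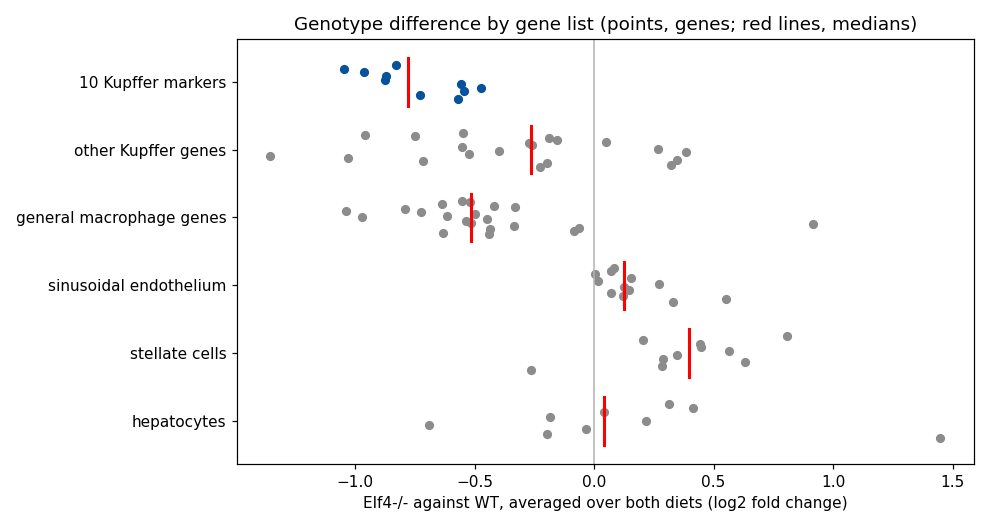
Log2 fold change of *Elf4-/-* against WT averaged over both diets (horizontal axis), with 1 point per tested gene for 6 gene lists and a red line at each median. The 10 Kupffer cell markers all lie below 0, at a median of -0.78, and the 12 sinusoidal endothelial genes lie at 0.0035 or above, at a median of 0.12.

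Genes of other liver cell types moved with diet too. Genes of sinusoidal endothelial cells (12 tested) had a median log2 response of 2.36 in WT, with 10 called higher in edgeR, and 0.59 in *Elf4-/-*, with none called and 3 at an unadjusted p under 0.05. Stellate cell genes (10 tested) had medians of 1.84 and 0.50, with 7 and 0 called. Over all genes tested, 21.6% were called in either direction in WT and 2.89% in *Elf4-/-*. Summed endothelial CPM went in WT from 214 and 121 to 503 and 593 with alcohol, and in *Elf4-/-* from 281 and 291 to 449 and 293, with none of the 12 genes at 0 in any library. Summed CPM of the 9 hepatocyte genes were lower under alcohol in WT, with means of 72297 ± 17185 and 44880.5 ± 5827 (SD, n = 2). The part of these cell types in the Kupffer marker values was not tested, and in whole liver RNA fewer cells of a type and less RNA per cell cannot be told apart.

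Within a library, the ratio of marker counts to those of another list does not depend on scaling. These ratios were looked at after the levels had been seen and carry no test. Counts of the 10 genes per count of the 12 endothelial genes were 1.35 and 2.01 without and 1.64 and 1.22 with alcohol in WT, against 0.754 and 0.716 without and 0.719 and 0.984 with it in *Elf4-/-*. The list sums differ between genotypes as well. Among all genes, 48.6% were lower in *Elf4-/-* than in WT on the Control diet, and 2 of 13993 were called in edgeR. Of the 12 endothelial genes, 12 were above 0 on that diet, none was called in edgeR and 8 had an unadjusted p under 0.05. The endothelial genes were higher in *Elf4-/-* by a median log2 of 1.013, and the stellate cell genes by 0.997. Their mean summed CPM in *Elf4-/-*-Control were 1.70 and 2.10 times those in WT-Control, against 0.788 times for the markers, so on that diet the ratios below differ by genotype largely through the other list. Set against endothelium, the diets overlapped in each genotype, while all 4 *Elf4-/-* libraries were below all 4 WT libraries. The same separation by genotype held per stellate cell count, at 1.32 to 4.32 in WT and 0.684 to 1.08 in *Elf4-/-*. Gene by gene it held per endothelial count for 4 of 10, *Clec4f*, *Cd5l*, *Adgre1* and *C1qb* (0.357% of all genes), and per stellate count for 6 of 10 (0.686%). Per count of general macrophage genes the sum was 1.28 and 1.24, then 1.88 and 1.94 with alcohol in WT, and 1.06 and 0.865, then 1.119 and 1.24 in *Elf4-/-*. The separation by genotype was then marginal, as the lowest WT and the highest *Elf4-/-* library both stood at 1.24, and *Clec4f* and *Mpeg1* kept it (0.107%). Per hepatocyte count, no gene of the 10 separated in this way (1.59%). Under EtOH, each such separation contains the genotype gap that is part of the difference on which the genes were picked. The shares in this paragraph therefore say nothing further about the 10 genes.

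**Figure D4:**
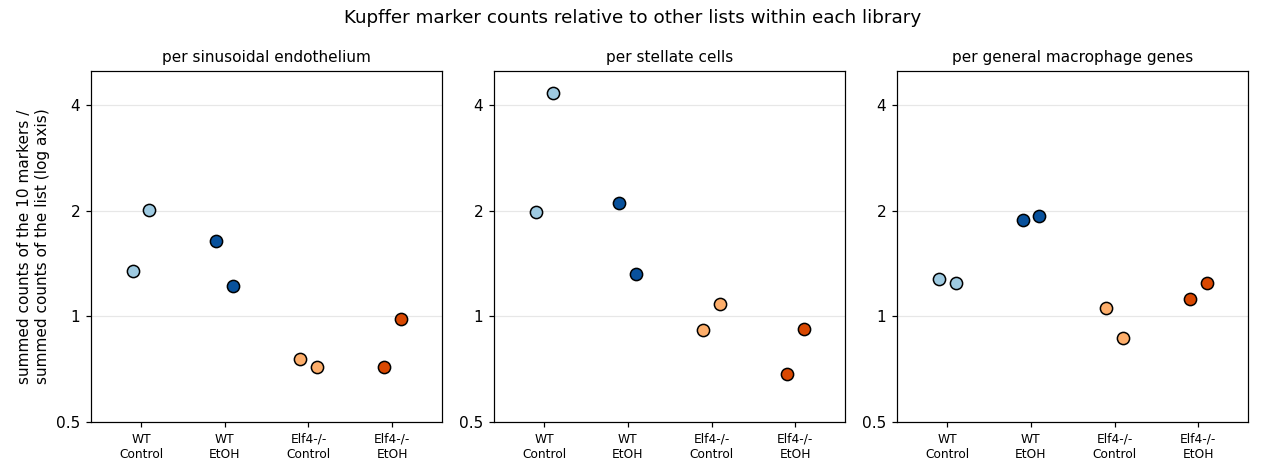
Summed counts of the 10 Kupffer cell markers divided by summed counts of sinusoidal endothelial, stellate cell or general macrophage genes in the same library (log axis), with 1 point per library. The 4 *Elf4-/-* libraries lie at 0.716 to 0.984 per endothelial count and the 4 WT libraries at 1.22 to 2.01.

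Compared per exon length (RPKM, CPM per kilobase), *Clec4f* was the most abundant of the 10 in every group, with means from 36.9 in *Elf4-/-*-Control to 95.01 in WT-EtOH, and *Adgre1* the least, from 0.495 to 2.25. Each gene's mean share of the length-scaled total of the 10 shifted with diet, in the same direction in both genotypes except for *Timd4* and *Adgre1*. *Timd4* went from 1.80% ± 0.52 to 1.90% ± 0.14 in WT and from 2.70% ± 0.25 to 1.84% ± 0.68 in *Elf4-/-* (SD, n = 2). *Adgre1*, with few counts, went from 0.483% ± 0.041 to 0.556% ± 0.051 in WT and from 0.482% ± 0.364 to 0.430% ± 0.204 in *Elf4-/-*. The share of *Clec4f* went from 37.8% ± 0.94 to 23.5% ± 2.84 in WT and from 36.0% ± 1.15 to 23.8% ± 1.79 in *Elf4-/-* (SD, n = 2). *Marco* went from 0.970% ± 0.051 to 7.30% ± 3.86 in WT and from 1.54% ± 0.90 to 7.10% ± 2.11 in *Elf4-/-*. *C1qb* went from 10.7% ± 1.08 to 13.5% ± 0.38 in WT and from 11.0% ± 0.85 to 14.5% ± 1.497 in *Elf4-/-*. *Mpeg1* went from 8.84% ± 1.95 to 3.50% ± 0.12 in WT and from 6.00% ± 0.11 to 4.64% ± 0.23 in *Elf4-/-*. The share of *Clec4f* under alcohol thus differed between genotypes by less than the spread of its libraries, while its level differed 2.49-fold.

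**Figure D5:**
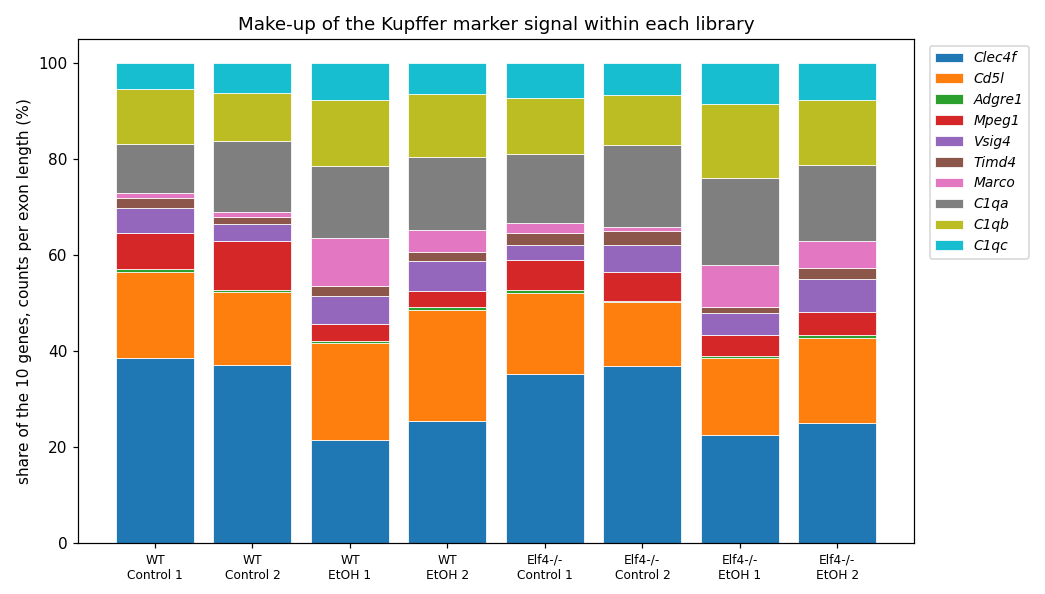
Share of each gene in the length-scaled total of the 10 Kupffer cell markers (vertical axis, percent) in each of the 8 libraries. The share of *Clec4f* is 35.2% to 38.4% in the 4 Control libraries and 21.5% to 25.5% in the 4 EtOH libraries of both genotypes.

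Across the 8 libraries, pairs of the 10 genes had Pearson correlations of log2 CPM from 0.499 to 0.988, with a median of 0.860, and the C1q pairs had the highest range, 0.964 to 0.988. Such values describe 8 libraries that share their groups, depth and composition. *C1qb* (0.991) and *Cd5l* (0.988) were closest to the mean of the 10, and *Mpeg1* (0.723) was furthest. Among 9398 genes averaging 50 counts or more per library, the 10 others most like that mean over 8 libraries were *Cggbp1* (0.987), *Tgoln1* (0.972), *Ak6* (0.969), *Lgmn* (0.966), *Rhoc* (0.966), *Folr2* (0.966), *Sdc3* (0.965), *Ppm1f* (0.964), *Rap1gds1* (0.962) and *Dnajb9* (0.962). *Ak6* overlaps *Taf9* and *Rad17*, so its counts are uncertain. None of the 12 endothelial genes was among the 100 most similar.

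A further 20 Kupffer genes were tested in the same libraries. Their list, like that of the markers, was drawn up with earlier results of these data known, so they are no independent check of the markers. Under alcohol in WT, 13 of the 20 rose and *C6*, a terminal complement component that hepatocytes also make, fell (21.6% of all genes called in either direction), with a median log2 of 1.62. In *Elf4-/-*, *Fcna*, a ficolin that recognises bacterial sugars, rose by 1.92 ± 0.36 (adjusted p = 0.0276), *Hpgd*, which degrades prostaglandins, rose by 1.09 ± 0.23 (adjusted p = 0.0387), and *C6* fell by 2.69 ± 0.39 (adjusted p = 0.0150), all in edgeR (2.89% of all genes called). The median in *Elf4-/-* was 0.36, and the response in *Elf4-/-* minus that in WT was below 0 for all 20 genes, with a median of -1.05. None of the 20 passed the adjusted threshold for this difference in edgeR (0% of all genes) or DESeq2, and 10 had an unadjusted p under 0.05 in edgeR (10.1% of all genes).

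The 5 of these genes with the largest differences in response were *Siglec1*, *Spic*, *Cdh5*, *Mertk* and *Slc40a1*. *Siglec1*, a sialic acid receptor that captures particles, stood at 1.68 and 1.10 CPM without and 12.5 and 8.05 with alcohol in WT, and at 3.59 and 2.39 without and 3.03 and 3.85 with it in *Elf4-/-*, a difference in response of -2.68 ± 0.63 (adjusted p = 0.268, edgeR). Its 2 *Elf4-/-* groups overlapped, as did those of *Spic*, a transcription factor of iron-recycling macrophages, at -2.09 ± 0.67 (adjusted p = 0.346, edgeR). *Mertk*, a receptor for dying cells, had -1.38 ± 0.37 (adjusted p = 0.276, edgeR), and *Cdh5*, which endothelial cells express as well, had -1.58 ± 0.58 (adjusted p = 0.407, edgeR). *Slc40a1*, the iron exporter ferroportin, was at -1.30 ± 0.39 (adjusted p = 0.316, edgeR), and without replicate 2 of *Elf4-/-*-EtOH it was at -1.83 (adjusted p = 0.0198, edgeR). In the genotype difference averaged over diets, 0 of these 20 genes passed in edgeR or DESeq2, 4 had an unadjusted p under 0.05 in the lower direction and 1 in the higher, and their median was -0.27, against -0.78 for the 10 markers.

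Among 21 tested general macrophage genes, 13 rose under alcohol in WT (21.6% of all genes called in either direction). None of the 21 was called in *Elf4-/-* (2.89% of all genes), where 4 had an unadjusted p under 0.05 upwards. Their median log2 was 1.23 in WT and 0.35 in *Elf4-/-*, and the genotype difference averaged over diets was below 0 for 20 of 21, with a median of -0.51. *Csf1r*, the receptor that macrophages need for survival, was at 0.77 under alcohol in WT and at -0.55 in the averaged genotype difference.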

How the data were processed

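Per the labels and the study's methods, the authors aligned paired-end reads of liver RNA to mm10 with HISAT2, sorted them with SAMtools, counted them per gene with HTSeq and tested with DESeq2. The deposited table holds raw counts per gene symbol for 8 libraries. Each of the 8 count columns was used, and 968 blank lines and 2 empty columns were dropped. Tool versions, annotation and strand setting are not given in the sources used here. Symbols were matched to GENCODE M21 for position and exon length.

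Genes with low counts were removed with filterByExpr, leaving 13993. All 8 libraries entered 1 edgeR 4.0.16 model (R 4.3.3) with 4 groups, TMM scaling and no covariate. Contrasts were tested with the quasi-likelihood test, with p-values adjusted by Benjamini-Hochberg over all genes tested, at a threshold of 0.05. The common biological coefficient of variation was 22.7%. Log2 CPM used a prior count of 2. Alternatives were DESeq2 1.42.0, its size factors, library totals alone, no filter, no mitochondrial genes, a replicate block, fits of the compared libraries alone, and leaving out each library.

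The 10 markers and all gene lists were chosen with earlier results of these data known. Named genes were the 10 markers in full, the 5 other Kupffer genes with the largest difference in response, the 10 genes most like the markers, and up to 4 genes with the most counts from other lists. *Fcna*, *Hpgd* and *C6*, with few called genes, were named after their values were seen. Library totals of 6171051 to 9157362 counts set the precision, and intervals cover counting error only.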

Additional observations from a re-analysis of the deposited data

How the results depend on the processing

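All 10 markers had a lower alcohol response in *Elf4-/-* than in WT under all alternatives, except *Mpeg1* without replicate 1 of WT-EtOH. With library totals alone as scaling, under which the median difference in response over all genes was -0.47, the median difference in response of the 10 was -1.64 and the median rise in WT was 2.43. Leaving out each library in turn gave -1.40 to -1.05 and 1.82 to 2.19. The number of the 10 called lower by the averaged genotype difference, 2, was 0 with library totals and 0 with the replicate block, and 0 to 3 over the left-out libraries.

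Of the other 20 Kupffer genes, 14 were called under alcohol in WT (7 to 15 without 1 library, lowest without replicate 2 of WT-EtOH) and 3 in *Elf4-/-* (0 in a fit of the compared libraries alone, 0 to 5 without 1 library). For the difference in response 0 were called (0 to 1 without 1 library), for genotype under EtOH 0 (1 with no filter, 2 in DESeq2, 0 to 3 without 1 library), and for the averaged genotype difference 0 (0 to 1 without 1 library). Without 1 library, some estimates changed sign. Under alcohol in *Elf4-/-*, *Mertk* ran from -0.39 to 0.058, *Siglec1* from -0.056 to 0.52, *Slc40a1* from -0.24 to 0.67 and *Spic* from -0.41 to 0.038. *Slc40a1* ran from -0.45 to 0.0039 in the averaged genotype difference.

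No label says that libraries with the same replicate number belong together, while the study states that its mice were pair-fed. Deviations of same-numbered libraries from their group means correlated at -0.13 to 0.11 over 9398 genes. With 2 libraries per group, these values cannot settle whether the libraries were paired. With the replicate number as a block, 1 of the 20 other Kupffer genes was called under alcohol in *Elf4-/-*, and all genes called there went from 404 to 240 and in the averaged genotype difference from 19 to 11.

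Counts over all genes moved too. Genes called under alcohol in *Elf4-/-* were 404 in edgeR, 811 in DESeq2 and 40 in the compared libraries alone, and 9 without replicate 2 of *Elf4-/-*-Control to 1683 without replicate 2 of *Elf4-/-*-EtOH. Those in WT were 3025, and 626 to 4023 without 1 library. The difference in response gave 0 in edgeR, 111 in DESeq2, 7 without a filter and 0 to 139 without 1 library. The averaged genotype difference gave 19 in edgeR, 118 in DESeq2, 47 without a filter and 3 to 237 without 1 library, and genotype under EtOH gave 20, 180, 50 and 0 to 366. The causes of these changes were not tested. With 2 libraries per group, a missed threshold does not show that a gene did not differ.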

Other observations

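The signals and transcription factors that maintain Kupffer cells (20 tested) had a median log2 response to alcohol of 0.98 in WT and 0.01 in *Elf4-/-*. Of these 20, 7 and 1 were called higher by edgeR, where 21.6% and 2.89% of all genes were called in either direction. Among the listed genes with most counts are *Nr1h3*, *Maf* and *Id3*, transcription factors of macrophages. Monocyte genes (5 tested, of 8 in the table) had medians of 1.88 and 0.90, and *Plac8* rose by 2.13 in WT. Genes of lipid-associated macrophages (6 tested) had medians of 0.66 and 0.27, and *Fabp5*, a fatty acid binding protein, fell by 3.20 in WT. Neutrophil genes (4 tested) had medians of 0.94 and 2.29, and their summed level in the 2 *Elf4-/-*-EtOH libraries was 19.8 and 6.50 CPM, so that 1 library carries the second value. Lymphocyte genes (4 tested) had medians of 0.72 and -0.36, and red blood cell genes (5 tested) -0.94 and -0.62.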
